A study of Mus musculus with 24 samples.

Results

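TRDV1, TRDV2-1 and TRDV2-2 are V segments of the T cell receptor delta chain, and their joins were followed in alpha (Tcra) and delta (Tcrd) transcripts of mouse thymocytes. They were taken by name from the tables, where they are 3 of 117 V segments listed for Tcra and 3 of 15 listed for Tcrd. Thymocytes of Satb1-/- mice were set against those of wild-type mice, with 3 libraries per genotype and chain, so that 12 of the 24 libraries of the series were used. The labels give both genotypes a C57BL/6 background and name no treatment. The series design gives an age of 4 to 12 weeks and calls the mutation a conditional knockout, while the driver of the recombinase is not given in the sources used here. Satb1 encodes a nuclear protein that organises chromatin in thymocytes. The measure is the share of joins, in percent of a library, that link a given V to a given J segment, and depth is not stated. The tables hold only V and J segments, so neither Satb1 nor marker genes of thymocytes could be checked. The labels do not say that the 3 replicates are separate mice, and all p-values measure only the spread between these libraries.

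The delta locus lies inside the alpha locus, between the V segments and the J alpha (TRAJ) segments. A V segment joined to a D and then a J delta (TRDJ) segment gives a delta chain, whereas a V segment joined straight to a TRAJ segment deletes the D, J and C delta segments and gives an alpha chain. Alpha rearrangement starts at the TRAJ segments nearest to the V segments and can be repeated on the same allele, each time with a V segment further upstream and a TRAJ segment further downstream, so early joins can be overwritten. The members lie at the end of the V array that is nearer to the delta genes, and are known mainly as V segments of delta chains.

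By gene name, all 3 members and all 43 TRAJ segments were found in GENCODE M21, on the + strand of chromosome 14 of GRCm38. Trdv1 (53881612 to 53882217) lies 275 kb upstream of Traj58, the TRAJ segment nearest to the V segments among those listed. Trdv2-1 (53946073 to 53946660) lies 211 kb and Trdv2-2 (53960944 to 53961602) 196 kb upstream of it. Trdj1, the delta J segment nearest to them, starts 241 kb, 176 kb and 162 kb downstream of Trdv1, Trdv2-1 and Trdv2-2, in that order. Trav21-dv12, a V segment known to serve both chains, lies 281 kb upstream of Traj58 and is thus the near neighbour of Trdv1.

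**Figure D1:**
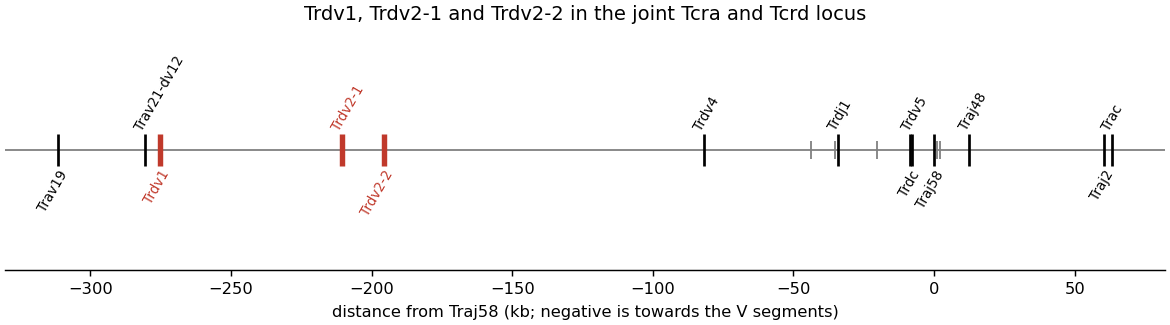
Map of the part of the joint alpha and delta locus that holds the members, drawn to scale along the x axis as distance from Traj58 in kb, negative towards the V segments, from GENCODE M21. Trdv1, Trdv2-1 and Trdv2-2 lie 275, 211 and 196 kb upstream of Traj58, with the D, J and C delta segments between them and the TRAJ array.

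The V exons of TRDV2-1 (chr14:53946362-53946660) and TRDV2-2 (chr14:53961304-53961602), taken from the GENCODE M21 transcripts, are shown because the tables report these near-identical copies as separate rows. Capitals mark the bases at which they differ.
TRDV2-1: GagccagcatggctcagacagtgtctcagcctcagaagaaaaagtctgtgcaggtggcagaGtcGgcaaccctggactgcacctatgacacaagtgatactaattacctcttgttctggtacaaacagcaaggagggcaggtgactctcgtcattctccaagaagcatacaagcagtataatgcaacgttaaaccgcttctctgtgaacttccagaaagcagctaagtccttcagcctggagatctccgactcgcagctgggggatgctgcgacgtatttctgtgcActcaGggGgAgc
TRDV2-2: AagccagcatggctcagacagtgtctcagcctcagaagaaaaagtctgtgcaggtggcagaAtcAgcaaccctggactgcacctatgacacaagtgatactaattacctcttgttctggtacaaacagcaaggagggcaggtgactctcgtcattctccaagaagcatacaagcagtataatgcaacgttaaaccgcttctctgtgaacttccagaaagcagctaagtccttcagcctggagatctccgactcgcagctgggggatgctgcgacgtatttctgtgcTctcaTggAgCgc
The exons are 299 bases long and differ at 7 bases, an identity of 97.7%. Of these 7 differences, 4 lie in the last 20 bases, where V segments are trimmed before joining, and a run of 221 bases is identical in both copies. The segment caller is not given in the sources used here, so how joins were divided between TRDV2-1 and TRDV2-2 is uncertain.

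The last 40 bases of each V exon are shown because they are the end that meets the J segment. Their positions are chr14:53882178-53882217 for TRDV1, chr14:53946621-53946660 for TRDV2-1 and chr14:53961563-53961602 for TRDV2-2, and capitals mark the codon of the conserved cysteine that opens the third complementarity-determining region.
TRDV1: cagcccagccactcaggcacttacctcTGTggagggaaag
TRDV2-1: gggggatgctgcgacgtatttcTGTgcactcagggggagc
TRDV2-2: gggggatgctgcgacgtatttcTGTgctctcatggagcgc
After that codon TRDV1 has 10 bases left in the exon and both Trdv2 copies have 15. Both listed TRDJ segments and the 3 TRAJ segments nearest to the V segments, whose pairs are described below, follow, at chr14:54123138-54123188 for TRDJ1, chr14:54136779-54136837 for TRDJ2, chr14:54157280-54157342 for TRAJ58, chr14:54158507-54158569 for TRAJ57 and chr14:54159263-54159325 for TRAJ56. Capitals mark the letters TTTGG followed, after 4 bases of any kind, by GGN, searched on the coding strand only, which spell the phenylalanine-glycine motif that closes the third complementarity-determining region.
TRDJ1: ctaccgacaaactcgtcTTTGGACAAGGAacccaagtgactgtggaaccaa
TRDJ2: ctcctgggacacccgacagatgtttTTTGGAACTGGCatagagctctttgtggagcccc
TRAJ58: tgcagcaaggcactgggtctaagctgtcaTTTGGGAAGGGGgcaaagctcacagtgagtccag
TRAJ57: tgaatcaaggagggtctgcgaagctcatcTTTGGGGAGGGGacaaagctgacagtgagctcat
TRAJ56: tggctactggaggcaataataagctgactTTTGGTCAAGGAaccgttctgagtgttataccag
The same letters were found in 33 of the 43 TRAJ segments and in both (2 of 2) TRDJ segments listed.

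The first comparison asked how much of the alpha repertoire used a delta V segment. TRDV1 and TRDV2-2 took a much larger share of Satb1-/- than of wild-type alpha transcripts, about 7-fold and 14-fold by the means, and TRDV2-1 stayed a minor segment in both genotypes. TRDV2-2 made up 5.90%, 9.49% and 5.74% of the 3 Satb1-/- libraries, against 0.539%, 0.535% and 0.433% of the 3 wild-type libraries. All Satb1-/- values lay above all wild-type values, with means of 7.04% ± 2.12 in Satb1-/- and 0.502% ± 0.0599 in wild type (SD, n = 3 each), a ratio of 14.0. In limma on log2(percent + 0.0157) over the 84 V segments averaging 0.1% or more, TRDV2-2 rose by a log2 fold change of 3.74 (SE 0.49, Benjamini-Hochberg adjusted p = 0.00758). In a bulk library, more cells with such a join and more transcript per cell cannot be told apart.

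TRDV1, the member furthest from the TRAJ array, made up 4.49%, 10.7% and 6.33% of the Satb1-/- alpha libraries, against 0.887%, 0.834% and 1.32% of the wild-type libraries. The groups did not overlap, and Satb1-/- replicate 2 was the highest library for TRDV1 as for TRDV2-2. The means were 7.17% ± 3.18 in Satb1-/- and 1.01% ± 0.269 in wild type (SD, n = 3 each), a ratio of 7.06, and TRDV1 rose by a log2 fold change of 2.74 (SE 0.55, limma adjusted p = 0.0412). TRDV2-1 made up 0.938%, 0.415% and 0.352% of the Satb1-/- libraries, against 0.190%, 0.0787% and 0.313% of the wild-type libraries. Its groups did not overlap either, but it did not pass the test (log2 fold change 1.52, 95% interval -0.05 to 3.09, limma adjusted p = 0.195). The gap between Satb1-/- replicate 3 and wild-type replicate 3 was smaller than the smallest value above 0 in that Satb1-/- library, 0.117%.

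Thus 2 of the 3 members were called higher and none lower in Satb1-/- alpha transcripts, where 3.57% of the 84 V segments tested were called higher, 1.19% lower and 4.76% in either direction. The median log2 fold change was -0.73 over all 84, so most V segments took a smaller share in Satb1-/- on this scale. That sign depends on the resolution of the libraries. The median was 0.41 over the 52 V segments tested at a common resolution, with every library limited to pairs that the coarsest library could show. The log values of each library were also taken relative to their median over the 84 V segments. The log2 fold changes were then 4.44 for TRDV2-2, 3.45 for TRDV1 and 2.23 for TRDV2-1, with the same calls. The calls rest on few libraries. Without Satb1-/- replicate 2 the adjusted p of TRDV1 was 0.0638. Without wild-type replicate 1, 2 or 3 it was 0.196, 0.244 and 0.170 for TRDV1 and 0.0684, 0.0704 and 0.0876 for TRDV2-2, while the log2 fold changes stayed between 2.41 and 3.03 for TRDV1 and between 3.50 and 3.86 for TRDV2-2 over all 6 omissions.

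In Satb1-/- alpha libraries TRDV1 and TRDV2-2 were at the same level within their spread, and TRDV2-1 lay below both without overlap. In wild-type alpha libraries the order was TRDV1, then TRDV2-2, then TRDV2-1, with no overlap between neighbours. TRDV2-2 ranked 4, 3 and 6 among the V segments of the Satb1-/- libraries, against 49, 50 and 55 in the wild-type libraries. TRDV1 ranked 6, 2 and 4 in Satb1-/-, against 36, 40 and 27 in wild type, and TRDV2-1 ranked 28, 38 and 44 in Satb1-/-, against 78, 88 and 63 in wild type. The 3 members together held 11.3%, 20.6% and 12.4% of the Satb1-/- alpha libraries, against 1.62%, 1.45% and 2.07% of the wild-type libraries. Their sum averaged 14.8% ± 5.05 in Satb1-/- and 1.71% ± 0.322 in wild type (SD, n = 3 each; exact two-sided permutation p = 0.1, the smallest that 3 against 3 libraries allow, and 0.3 adjusted over 6 single values). The difference of 13.1 percentage points was 5.19 points with each V–J pair above 0 counted once, which gives a pair the same weight whatever its percent.

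The delta transcripts showed another picture. TRDV2-2 was the leading delta V segment in all 6 Tcrd libraries, at 73.0%, 65.5% and 58.4% in Satb1-/- and 54.7%, 50.0% and 56.9% in wild type. The groups did not overlap, but Satb1-/- replicate 3 lay only just above wild-type replicate 3. The means were 65.6% ± 7.30 in Satb1-/- and 53.9% ± 3.54 in wild type (SD, n = 3 each; ratio 1.22), and the difference did not pass limma (log2 fold change 0.28, 95% interval -0.46 to 1.03, adjusted p = 0.556 over 13 V segments). TRDV1 held 6.37%, 9.52% and 6.42% in Satb1-/-, against 8.85%, 8.60% and 12.1% in wild type. Its groups overlapped (log2 fold change -0.41, 95% interval -1.30 to 0.47, limma adjusted p = 0.528).

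TRDV2-1 was rare in the delta libraries, at 0.346% and 0.0637% in Satb1-/- replicates 1 and 2 and listed at 0 in replicate 3, against 0.0959% and 0.184% in wild-type replicates 1 and 3 and listed at 0 in replicate 2. None of the 3 members was called in Tcrd, and neither was any of the other V segments. Limma called 0% of the 13 V segments tested, and 0 of them reached an unadjusted p under 0.05. Together the members held 79.7%, 75.1% and 64.8% of the Satb1-/- delta libraries, against 63.7%, 58.6% and 69.2% of the wild-type libraries, ranges that overlap (exact permutation p = 0.2, adjusted 0.36).

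**Figure D2:**
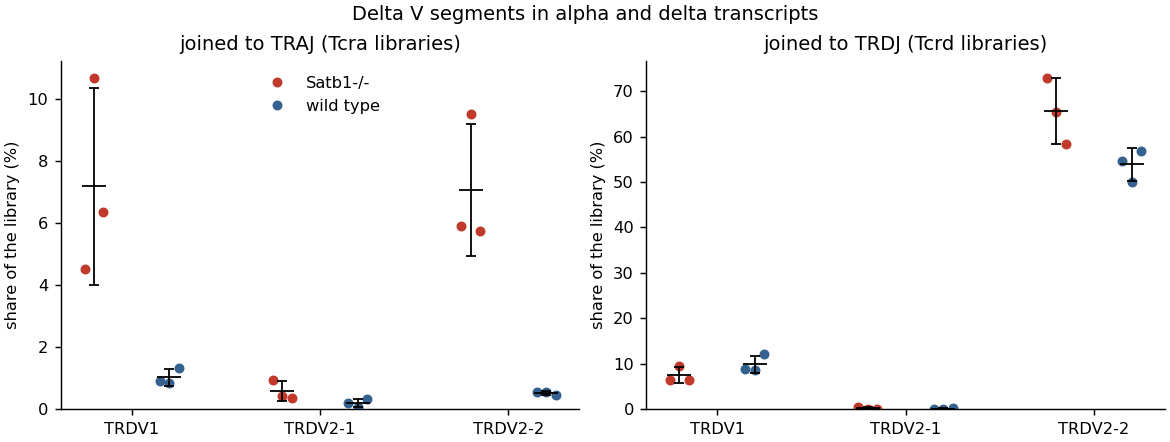
Share of each library in percent on the y axis for TRDV1, TRDV2-1 and TRDV2-2, in alpha transcripts and in delta transcripts, with a panel for each chain. Points are libraries, 3 Satb1-/- to the left of 3 wild type, and lines mark the mean with its SD. In alpha transcripts TRDV2-2 averaged 7.04% in Satb1-/- and 0.502% in wild type, while in delta transcripts it averaged 65.6% in Satb1-/- and 53.9% in wild type.

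Whether the genotype difference was larger in alpha than in delta transcripts was tested as an interaction in limma over the 12 libraries, for the 9 V segments averaging 0.1% or more in both chains. This fit took the 12 libraries as independent, so a sample shared by alpha and delta libraries of the same number was not accounted for. The difference was larger in alpha transcripts by 3.45 on the log2 scale for TRDV2-2 (SE 0.42, adjusted p = 9.44e-05) and by 3.15 for TRDV1 (SE 0.55, adjusted p = 0.000699). For TRDV2-1 it was 1.40 (SE 1.79, adjusted p = 0.678). The test called 33.3% of the 9 segments, and the third called was TRAV21/DV12 with 3.13 (adjusted p = 0.000699). Chains were amplified and scaled to 100% separately, so levels are not compared between them. TRDV2-2 averaged 53.9% of the wild-type delta libraries, and a share cannot exceed 100%. A fold change as large as in alpha transcripts was thus not possible for it in delta transcripts. For TRDV2-2 the test therefore cannot separate a difference between chains from this bound. The interaction was also measured against the median log value of the 9 segments in each library, a set that includes the members and TRAV21/DV12. It was then 1.08 for TRDV2-2, 0.78 for TRDV1 and -0.97 for TRDV2-1, and no member was called (limma adjusted p = 0.467 for TRDV2-2 and for TRDV1).

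The ratio of TRDV2-2 to TRDV1, which does not depend on the scaling of a library, was 1.31, 0.889 and 0.907 in Satb1-/- alpha libraries, against 0.607, 0.642 and 0.327 in wild-type alpha libraries. It was 11.5, 6.88 and 9.10 in Satb1-/- delta libraries, against 6.18, 5.81 and 4.72 in wild-type delta libraries. In both chains the Satb1-/- ratios lay above the wild-type ratios without overlap (exact permutation p = 0.1 each, adjusted 0.25 over 20 values computed after the levels were seen). TRDV2-1 amounted to 15.9%, 4.37% and 6.12% of TRDV2-2 in Satb1-/- alpha libraries, against 35.3%, 14.7% and 72.2% in wild-type alpha libraries. Those ranges overlap by little (exact permutation p = 0.2, adjusted 0.4), and in delta libraries TRDV2-1 never exceeded 0.474% of TRDV2-2.

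The second comparison asked which TRAJ segments the delta V segments were joined to. In both genotypes most of their alpha joins used the TRAJ segments nearest to the V segments, those from TRAJ58 to TRAJ48. This window held 81.7%, 73.2% and 71.7% of the members' joins in Satb1-/-, against 70.6%, 63.0% and 73.3% in wild type. The groups overlapped, with means of 75.5% ± 5.39 in Satb1-/- and 69.0% ± 5.30 in wild type (SD, n = 3 each; exact permutation p = 0.3, adjusted 0.36). The mean TRAJ number of their joins was 50.3 in Satb1-/- and 48.8 in wild type (exact permutation p = 0.4, adjusted 0.4), where a higher number lies nearer to the V segments. The sign of the differences in window share and in mean number turned at a common resolution, with every library limited to pairs that the coarsest library could show, to -12.4 percentage points and -4.50. The difference in window share was also below 0, at -2.57 points, when every pair above 0 had equal weight.

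The same share was taken for all other V segments together, as a measure of the rest of the alpha repertoire. It was 52.5%, 67.0% and 66.5% in Satb1-/-, against 19.4%, 17.2% and 18.9% in wild type. The members' share exceeded it by 29.2, 6.21 and 5.17 percentage points in Satb1-/- and by 51.2, 45.8 and 54.4 points in wild type. The excess was above 0 in 6 of 6 libraries, with a mean of 32.0 points (exact two-sided sign-flip p = 0.031, the smallest 6 libraries allow, adjusted 0.1875). With each V–J pair above 0 counted once, the mean excess was 17.3 points. It averaged 13.5 points ± 13.6 in Satb1-/- and 50.5 points ± 4.33 in wild type, without overlap (n = 3 each; exact permutation p = 0.1).

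**Figure D3:**
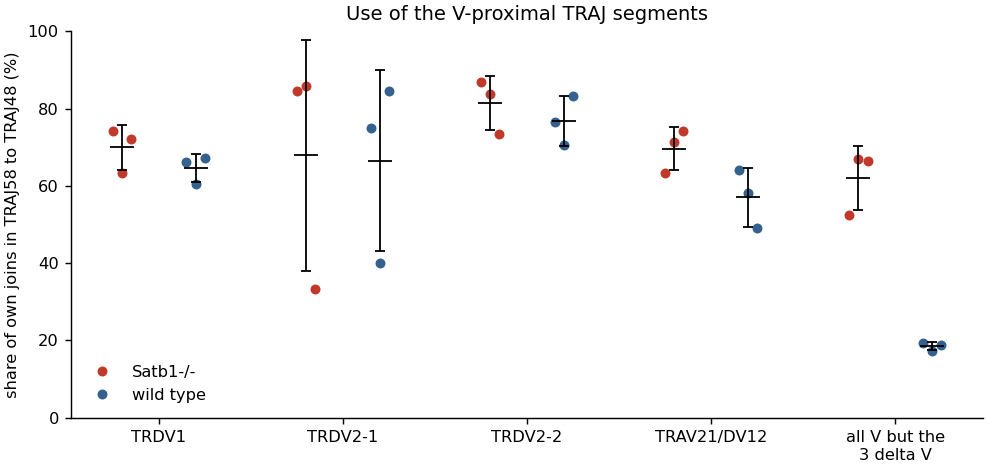
Share in percent of a segment's own alpha joins that used TRAJ58 to TRAJ48 (y axis), for each of the 3 members, for TRAV21/DV12 and for all V segments but the 3 members. Points are libraries, Satb1-/- left of wild type, and lines mark the mean with its SD. TRDV2-2 averaged 81.4% in Satb1-/- and 76.8% in wild type, and all other V segments 62.0% in Satb1-/- and 18.5% in wild type.

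TRDV2-2, which lies nearer to the TRAJ array than TRDV1, used the window more than TRDV1 did in every library. Its own share there was 86.9%, 83.8% and 73.5% in Satb1-/-, against 76.5%, 70.6% and 83.3% in wild type, and that of TRDV1 was 74.3%, 63.3% and 72.2% in Satb1-/-, against 66.1%, 60.4% and 67.3% in wild type. TRDV2-2 exceeded TRDV1 by 11.8 points on average, in 6 of 6 libraries (exact sign-flip p = 0.031, adjusted 0.09375 over 3 differences chosen after the data were seen). The gap was smallest in Satb1-/- replicate 3, at 1.25 points. There TRDV2-2 held 5.74% of the library, and the smallest value above 0 was 0.117%. In wild-type replicate 3 it held 0.433%, with a smallest value above 0 of 0.0241%, so its own share was coarser there. The mean TRAJ number of TRDV2-2 was higher than that of TRDV1 in 5 of 6 libraries and lower by 0.98 in Satb1-/- replicate 3, with a mean difference of 1.97 (TRDV2-2 minus TRDV1, exact sign-flip p = 0.0625, adjusted 0.09375). For TRAV21/DV12, the neighbour of Trdv1, the window held 63.4%, 71.3% and 74.2% in Satb1-/- and 64.1%, 58.1% and 49.0% in wild type.

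Pairs of a member with single TRAJ segments were tested next. Of 129 possible pairs of a member with a TRAJ segment, 84 were above 0 in some library, 23 in all 3 Satb1-/- libraries and 12 in all 3 wild-type libraries. The filter on a mean of 0.1% left 20 pairs, 11 of TRDV1, 9 of TRDV2-2 and none of TRDV2-1. All 20 reached 0.1% in the Satb1-/- mean and 4 in the wild-type mean, so most entered the test through the genotype in which they were higher. Of the 20, 16 were called higher and 0 lower in Satb1-/-, 8 of each segment, where 22.8% of all 202 pairs tested were called higher and 12.9% lower. Pairs of other V segments with TRAJ58 to TRAJ48 rose too: 30 of 96 tested were called higher and 0 lower, with a median log2 fold change of 1.78. Of the member pairs in that window, 14 of 16 were called higher and 0 lower, with a median of 3.19. The median was 1.30 over all 202 pairs tested and -0.45 over the 3123 pairs tested without the filter, so the filter raises such medians. On the scale relative to the median log value of the 202 pairs in each library, 6 of the 20 member pairs were called higher. Over all 202 pairs the calls were then 9 higher and 28 lower, against 46 higher and 26 lower without that scaling. Without wild-type replicate 1, 2 or 3, 6, 4 and 9 member pairs were called.

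TRDV2-2 with TRAJ58, the segment's highest pair by the mean of either genotype, made up 1.88%, 1.72% and 0.938% of Satb1-/- alpha libraries, against 0.111%, 0.157% and 0.144% of wild-type libraries. The groups were far apart, and the pair rose by a log2 fold change of 3.27 (limma adjusted p = 0.0165). With TRAJ57, which exceeded TRAJ58 in Satb1-/- replicates 2 and 3, it made up 1.03%, 2.14% and 1.17% in Satb1-/-, against 0.0792%, 0.0787% and 0.0481% in wild type (log2 fold change 4.06, limma adjusted p = 0.00644). With TRAJ50 it made up 0.397%, 0.890% and 0.821% in Satb1-/- and was listed at 0, 0 and 0.0241% in wild type (limma adjusted p = 0.00506). Its pairs with TRAJ53 and TRAJ48 were listed at 0 in all 3 wild-type libraries and were called higher as well, with 0.217%, 0.593% and 0.352% for TRAJ53 and 0.325%, 0.237% and 0.234% for TRAJ48 in Satb1-/-. TRAJ56, TRAJ49 and TRAJ42 complete the 8 partners with which TRDV2-2 rose. With TRAJ56 it made up 0.505%, 0.890% and 0.352% in Satb1-/-, against 0.111%, 0.0315% and 0.0481% in wild type (log2 fold change 2.94, limma adjusted p = 0.0205). With TRAJ52 it made up 0.235%, 1.07% and 0 in Satb1-/-, against 0.0158%, 0.0315% and 0.0241% in wild type, and was not called (limma adjusted p = 0.210).

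TRDV1 with TRAJ58 made up 0.938%, 1.36% and 0.821% of Satb1-/- alpha libraries, against 0.127%, 0.142% and 0.168% of wild-type libraries (log2 fold change 2.69, limma adjusted p = 0.0202). With TRAJ56 it made up 0.848%, 1.36% and 1.29% in Satb1-/-, against 0.174%, 0.157% and 0.217% in wild type (log2 fold change 2.56, limma adjusted p = 0.0205). Neither pair overlapped between the groups. With TRAJ53 it made up 0.235%, 0.593% and 0.234% in Satb1-/- and 0.0317% in wild-type replicate 1, and it was listed at 0 in the other 2 wild-type libraries (limma adjusted p = 0.0141). TRDV1 with TRAJ52, TRAJ50, TRAJ49, TRAJ48 and TRAJ40 rose too. The pair with TRAJ40 overlapped between groups, at 0.307%, 0.712% and 0.117% in Satb1-/- and 0.120% in wild-type replicate 3, with 0 in wild-type replicates 1 and 2. TRDV1 with TRAJ57 made up 0.307%, 1.25% and 0.586% in Satb1-/-, against 0.0792%, 0.126% and 0.289% in wild type, and missed the threshold (limma adjusted p = 0.0742). The pair with TRAJ45 missed it too, at 0.126%, 0.771% and 1.17% in Satb1-/-, against 0.0158%, 0.0944% and 0.120% in wild type (limma adjusted p = 0.0505).

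**Figure D4:**
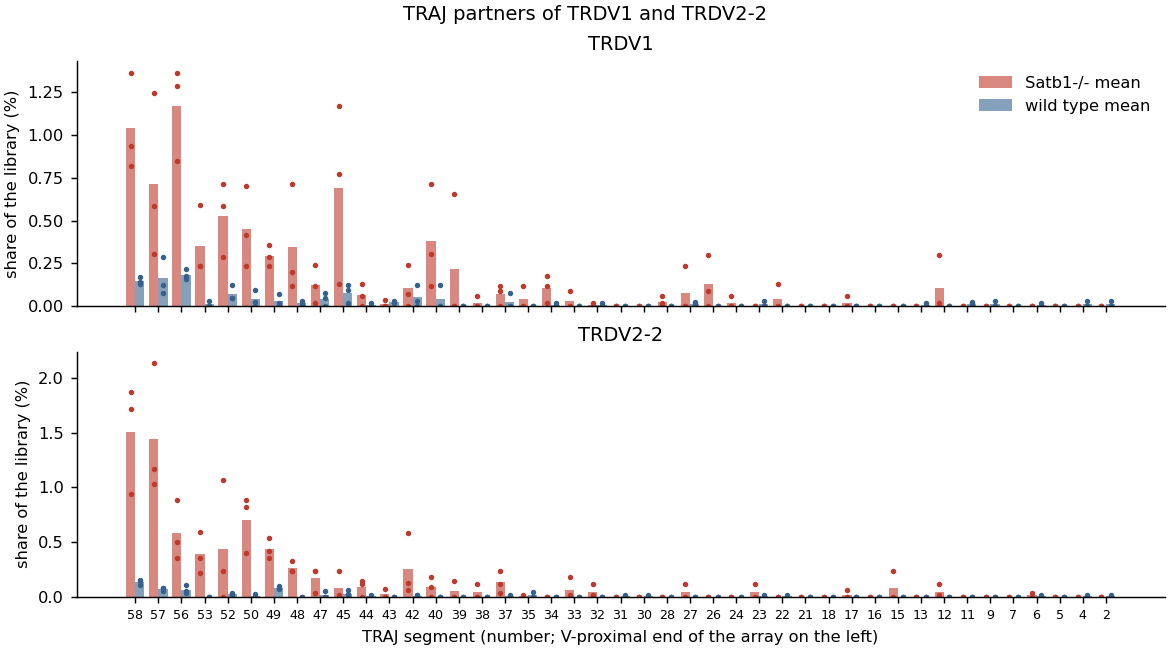
Share of the library in percent (y axis) for joins of TRDV1 and of TRDV2-2 to each of the 43 TRAJ segments (x axis, the end nearest to the V segments on the left). Bars are means of 3 libraries, Satb1-/- left of wild type, and points are libraries. The joins of both segments gather at TRAJ58 to TRAJ48, where TRDV2-2 with TRAJ58 averaged 1.51% in Satb1-/- and 0.138% in wild type.

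The first window itself was used more in Satb1-/-, so the members' share was also taken within it. Of all joins to TRAJ58 through TRAJ48 the members made up 16.6%, 22.1% and 13.3% in Satb1-/-, against 5.64%, 5.10% and 7.58% in wild type. The groups did not overlap, with means of 17.3% ± 4.45 in Satb1-/- and 6.11% ± 1.31 in wild type (SD, n = 3 each), a ratio of 2.83. The difference of 11.2 percentage points was 2.84 points with each pair counted once. TRDV2-2 made up 9.18%, 11.6% and 6.28% of the window in Satb1-/-, against 2.04%, 2.11% and 1.81% in wild type, a ratio of the means of 4.55, against 14.0 in the whole library. TRDV1 made up 5.98%, 9.90% and 6.81% in Satb1-/-, against 2.90%, 2.81% and 4.45% in wild type, a ratio of 2.23, against 7.06 in the whole library. TRDV2-1 made up 1.42%, 0.521% and 0.175% in Satb1-/-, against 0.705%, 0.176% and 1.32% in wild type, and its groups overlapped. The rise was not particular to the members. TRAV21/DV12, the neighbour of Trdv1, made up 13.1%, 7.99% and 16.6% of the window in Satb1-/-, against 5.17%, 5.98% and 5.78% in wild type. Its ratio of the means was 2.23.

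Outside that window, among joins to TRAJ47 through TRAJ2, the members made up 4.70%, 17.4% and 10.7% in Satb1-/-, against 0.596%, 0.651% and 0.692% in wild type. These groups too did not overlap, and replicate 1 was the lowest Satb1-/- library. The exact permutation p was 0.1 for the first window and 0.1 for the rest of the array (adjusted 0.25 over the 20 values computed after the levels were seen). In the second window, TRAJ47 to TRAJ38, the share was 7.03%, 20.0% and 11.7% in Satb1-/-, against 1.04%, 1.82% and 2.44% in wild type. TRAV21/DV12 averaged 9.37% of that window in Satb1-/- and 2.56% in wild type. Further along the array the Satb1-/- libraries hold few joins: TRAJ18 to TRAJ11 in replicates 2 and 3 amount to 33 and 14 times the smallest value of the library. The members' shares of 27.3% and 21.4% there are correspondingly coarse, while replicate 1 had 0.806% and the wild-type libraries 0.183%, 0.0912% and 0.163%.

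**Figure D5:**
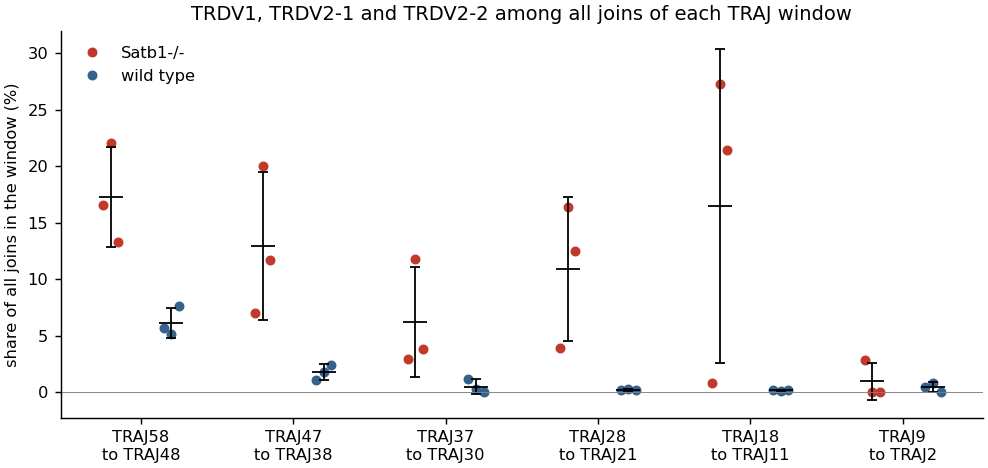
Share in percent of all alpha joins to a TRAJ window (y axis) that used TRDV1, TRDV2-1 or TRDV2-2, for the 6 windows along the array (x axis, the end nearest to the V segments on the left). Points are libraries, Satb1-/- left of wild type, and lines mark the mean with its SD. In the first window the members averaged 17.3% in Satb1-/- and 6.11% in wild type, and in the windows from TRAJ28 on the Satb1-/- libraries differ widely among themselves.

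The V segments whose Satb1-/- profile over the 43 TRAJ segments overlapped most with that of TRDV1 were TRAV19 (79.2%), TRAV21/DV12 (76.6%) and TRAV7D-5 (76.4%), where the median over 33 segments was 65.7%. Overlap is the sum over TRAJ segments of the smaller of both shares. For TRDV2-2 they were TRAV13-4-DV7 (78.9%), TRAV12-2 (77.9%) and TRAV13-1 (75.7%), with a median of 60.4%. For TRDV2-1, with few joins, they were TRDV2-2 (66.9%), TRAV12-2 (64.0%) and TRDV1 (60.5%), with a median of 50.5%. In wild type the profiles lay further apart. There the median overlap was 38.3% for TRDV1 and 26.9% for TRDV2-2 over 49 segments, and TRDV1 was most like TRAV21/DV12 (78.9%) while TRDV2-2 was most like TRDV1 (66.1%).

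In delta transcripts the members were joined almost wholly to TRDJ1. It took 93.0%, 98.4% and 97.7% of their joins in Satb1-/-, against 98.5%, 98.4% and 98.0% in wild type, ranges that overlap (exact permutation p = 0.3, adjusted 0.36). TRDV2-2 with TRDJ1 alone made up 67.5%, 64.4% and 57.1% of Satb1-/- libraries, against 53.9%, 49.1% and 56.3% of wild-type libraries. TRDV2-2 with TRDJ2 made up 5.51%, 1.11% and 1.36% in Satb1-/-, against 0.895%, 0.923% and 0.643% in wild type. The groups did not overlap in either pair, but for TRDJ2 the gap rests largely on replicate 1, and the pair was not called (log2 fold change 1.31, limma adjusted p = 0.577). TRDV1 with TRDJ1 made up 6.30%, 9.46% and 6.26% in Satb1-/-, against 8.82%, 8.60% and 11.3% in wild type, with overlap. None of the 5 member pairs tested was called, and limma called 0% of the 18 Tcrd pairs, with 0 at an unadjusted p under 0.05.

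The other V segments that can serve the delta chain were TRDV4, TRDV5 and the segments with DV in their name, 12 in all. In alpha transcripts 8 were tested, of which 1 was called higher and 0 lower in Satb1-/-, where 3.57% of all 84 V segments were called higher and 1.19% lower, with a median log2 fold change of -0.17, against -0.73 over all 84. The one called was TRAV21/DV12, at 11.5%, 7.65% and 15.0% in Satb1-/- and 1.63%, 1.84% and 2.36% in wild type (log2 fold change 2.51, limma adjusted p = 0.0412). TRDV4 and TRDV5, the delta V segments closest to the TRAJ array, were listed at 0 in all 6 alpha libraries. Unlike the members, Trdv5 lies on the - strand and downstream of the delta J segments. In delta transcripts 10 of the 12 were tested and none was called, with a median of -0.83, against -0.62 over all 13.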

How the data were processed

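Per the labels' protocols, total RNA of thymocytes went through reverse transcription with 5′ RACE and PCR from a constant-region primer for each chain. Reads were processed with fastp, per the submitters' processing notes. Segment caller and genome build: not given in the sources used here, nor is whether reads or clonotypes were counted. The authors deposited the values as percent of a library, 1 table per library, and no counts, so no counting interval or floor was computed. The smallest value above 0 was 0.0180%, 0.0593% and 0.117% in the Satb1-/- Tcra libraries and 0.0158%, 0.0157% and 0.0241% in the wild-type ones, and lay between 0.0128% and 0.0803% in the Tcrd libraries.

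Shares of a V segment are sums over J segments. For each chain, V segments and their pairs averaging 0.1% or more were tested with limma 3.58.1 (R 4.3.3) after adding 0.0157 (Tcra) or 0.0128 (Tcrd) percent, the finest step of that chain, and taking log2, with Benjamini-Hochberg adjustment over all features tested and calls at 0.05. Fold changes on this scale understate the change of rare pairs. Single values were compared with exact two-sided permutation or sign-flip tests over libraries. TRAJ18 was counted with TRAJ17 to TRAJ11. Named pairs are the 8 highest and 8 lowest called and those of at least 0.5% in a genotype; other pairs of a member were named after their values were seen. Likeness was computed for V segments of at least 0.5%. Alternatives were other pseudocounts and filters, centred log-ratios, a common resolution, leaving out each library, a replicate block, other J bounds and summed Trdv2 copies. The members, lists and tests were chosen with earlier results of these data known. Sequences and positions are from GENCODE M21 (GRCm38), matched by gene name. Python 3.11.15, numpy 2.4.6, pandas 2.3.3 and matplotlib 3.10.9 were used.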

Additional observations from a re-analysis of the deposited data

Results flagged for a closer look

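The genotype difference of TRDV2-2 was larger in alpha than in delta transcripts by 3.45 on the log2 scale, and that of TRDV1 by 3.15, each past the threshold in the limma interaction test. Both stood out because the same genotype contrast differed between the 2 chains. In the alpha libraries the log2 fold changes were 3.74 for TRDV2-2 and 2.74 for TRDV1, and in the delta libraries they were 0.28 for TRDV2-2 and -0.41 for TRDV1. TRDV2-2 held 50.0% to 73.0% of the delta libraries, and the part of this high level in its difference between chains was not tested. Measured against the median log value of the 9 segments tested in each library, neither the difference of TRDV2-2 nor that of TRDV1 was called. The interaction test took the 12 libraries as independent.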

How the results depend on the processing

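Over 21 results, 258 values were recomputed under alternatives. Of these, 231 kept their direction and side of the threshold or, for counts of calls, stayed near the main count. Another 10 counts moved further, 10 values lost the threshold and 7 changed sign. For the members' share within the first window only the direction was judged. The 2 member V segments called in Tcra became 1 at the common resolution, where TRDV1 had an adjusted p of 0.0509, and ranged from 0 to 2 when a library was left out. The 16 member pairs called in Tcra became 6 with centred log-ratios and ranged from 4 to 16 when a library was left out. With centred log-ratios the interaction called 0 members. Signs changed for TRDV1 in Tcrd (0.34 with centred log-ratios), TRDV2-1 in Tcrd (-0.18 at the common resolution and from -1.05 to 1.35 when a library was left out, negative without wild-type replicate 2), the interaction of TRDV2-1 (-0.97 with centred log-ratios), the members' first-window share (-2.57 points with each pair counted once and -12.4 at the common resolution) and their mean TRAJ number (-4.50 at the common resolution). The causes were not tested. The members' share within the first window, added after seeing the data, exceeded wild type by 11.2 points, by 8.82 to 13.2 points when a library was left out, by 10.4 at the common resolution and by 2.84 with each pair counted once. Equal replicate numbers were not treated as pairs in the main fits. The correlation of deviations between equal numbers was 0.318, -0.0367 and 0.184 for Tcra V segments and 0.0634, 0.135 and 0.170 for Tcra pairs. These values lie on both sides of the bound of 0.1, and for Tcra pairs every library correlated best with its own number. With the replicate block, 2 member V segments and 17 member pairs were called in Tcra and 0 in Tcrd, while the V segments called lower over all 84 numbered 12 instead of 1. The smallest value above 0 limits what can be seen to 0.117% in the Tcra library of Satb1-/- replicate 3 and 0.0593% in that of replicate 2, and the exact tests of 3 against 3 libraries cannot go below p = 0.1.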

Other observations

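The number of TRAJ partners above 0 differed between the members and with the resolution of the libraries. TRDV1 was joined to 22, 23 and 13 TRAJ segments in the Satb1-/- libraries, against 17, 15 and 12 in the wild-type libraries. TRDV2-2 was joined to 21, 19 and 13 in Satb1-/-, against 11, 12 and 8 in wild type, and 2 of the Satb1-/- libraries are the coarsest of the 6. Its share was also larger, at 5.74% to 9.49% of the Satb1-/- libraries against 0.433% to 0.539% of the wild-type ones. A segment with more joins can show more partners, and the part of this in the counts was not tested. TRDV2-1 was joined to 13, 7 and 3 in Satb1-/-, against 6, 5 and 7 in wild type. The pair of TRDV1 with TRAJ39 was above 0 only in Satb1-/- replicate 2, at 0.652%, and was listed at 0 in the other 5 alpha libraries. TRDJ2 took 7.54% of the TRDV2-2 joins of the Satb1-/- replicate 1 delta library, against 1.70% and 2.34% in the other 2 Satb1-/- libraries and 1.64%, 1.85% and 1.13% in wild type.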
